A study of Mus musculus with 6 samples.

Results

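The AMPA receptor genes Gria1 to Gria4 and the kainate receptor genes Grik1 to Grik5, 9 genes in all, were examined for sites bound by the splicing regulators NOVA1 and NOVA2. A member was any CLIP cluster sharing a strand and 1 nt or more with the GENCODE vM1 span of one of these genes, in mm9 coordinates. This gave 71 of 9988 NOVA1 clusters and 270 of 36591 NOVA2 clusters. The AMPA genes held 37 NOVA1 and 114 NOVA2 clusters, and the kainate genes held 34 and 156.

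The clusters came from HITS-CLIP, which uses ultraviolet light to fix a protein to the RNA it touches in intact tissue and then sequences the RNA pulled down with an antibody. The tissue was cortex of wild-type CD1 mice at embryonic day 18.5, with 3 libraries for NOVA1 and 3 for NOVA2. The authors pooled the libraries of each protein into 1 list and kept clusters of at least 10 tags that were found in more than 1 library. Values of single libraries were not analysed here, so the replicate spread behind a difference is unknown. Intervals cover counting error only, except that of the median over pairs, which covers the spread between positions.

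AMPA receptors are tetramers of the subunits GluA1 to GluA4 and carry most of the fast excitatory current at central synapses. Kainate receptors are built from GluK1 to GluK5, of which GluK4 and GluK5 need a partner from the other subunits to form a channel. The AMPA pre-mRNAs carry a pair of mutually exclusive exons, flip and flop, that encode an alternative segment of the ligand-binding region and set how fast the channel desensitizes. In Gria2, Grik1 and Grik2 an adenosine in the pore-loop codon, the Q/R site, is edited to inosine by ADAR enzymes on a duplex between exon and intron. Both NOVA proteins bind clusters of the tetranucleotide YCAY, where Y is C or U, and NOVA binding next to an exon is known to alter its inclusion.

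For each AMPA gene, the intron cluster with the most NOVA2 tags within 5 kb of the flip or flop exon was read from the mm9 genome to show what was bound there. Each is given 5′ to 3′ on the transcribed strand as DNA letters, with every YCAY in capitals. All of the 4 lie in introns, at chr11:57120875-57121019 (plus strand), chr3:80492697-80492956 (minus), chrX:39018891-39018980 (plus) and chr9:4423593-4423816 (minus).
Gria1, before the flop exon: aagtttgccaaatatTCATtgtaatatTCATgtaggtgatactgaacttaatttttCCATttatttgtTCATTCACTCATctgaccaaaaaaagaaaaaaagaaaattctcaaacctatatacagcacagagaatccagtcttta
Gria2, after the flip exon: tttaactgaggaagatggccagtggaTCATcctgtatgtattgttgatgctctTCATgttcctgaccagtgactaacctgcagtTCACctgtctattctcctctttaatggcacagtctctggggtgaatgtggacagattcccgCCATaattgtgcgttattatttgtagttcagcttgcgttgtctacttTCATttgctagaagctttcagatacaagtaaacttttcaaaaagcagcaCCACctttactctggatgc
Gria3, between flop and flip: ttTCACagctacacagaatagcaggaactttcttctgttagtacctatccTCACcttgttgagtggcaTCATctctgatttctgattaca
Gria4, after the flip exon: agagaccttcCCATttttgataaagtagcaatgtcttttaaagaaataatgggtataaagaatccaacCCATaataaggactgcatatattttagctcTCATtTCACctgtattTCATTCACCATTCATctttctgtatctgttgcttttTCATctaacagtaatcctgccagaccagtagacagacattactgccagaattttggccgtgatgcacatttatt
These clusters held 134, 54, 10 and 274 NOVA2 tags and 6, 6, 3 and 9 YCAY.

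The intron cluster of highest NOVA2 tag count in each family is shown next, at chr3:80506900-80507199 for the AMPA genes (minus strand, the 300 nt with most YCAY of a cluster of 469 nt) and at chr10:48982582-48982879 for the kainate genes (minus strand). A further Gria2 cluster, at chr3:80510327-80510524 (minus strand), is shown because it follows the exon of the Q/R site.
Gria2, end of intron 11: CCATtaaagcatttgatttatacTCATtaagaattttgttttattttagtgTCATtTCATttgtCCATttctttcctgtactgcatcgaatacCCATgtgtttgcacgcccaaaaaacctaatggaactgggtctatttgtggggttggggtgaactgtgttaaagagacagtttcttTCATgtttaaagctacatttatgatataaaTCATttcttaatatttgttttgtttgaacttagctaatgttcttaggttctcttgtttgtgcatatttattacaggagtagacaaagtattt
Grik2, intron 12: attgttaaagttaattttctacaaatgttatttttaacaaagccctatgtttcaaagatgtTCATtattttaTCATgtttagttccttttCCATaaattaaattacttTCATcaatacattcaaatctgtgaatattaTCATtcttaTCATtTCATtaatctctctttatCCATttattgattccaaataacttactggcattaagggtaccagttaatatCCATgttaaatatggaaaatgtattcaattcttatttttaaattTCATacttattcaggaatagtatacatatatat
Gria2, start of intron 11: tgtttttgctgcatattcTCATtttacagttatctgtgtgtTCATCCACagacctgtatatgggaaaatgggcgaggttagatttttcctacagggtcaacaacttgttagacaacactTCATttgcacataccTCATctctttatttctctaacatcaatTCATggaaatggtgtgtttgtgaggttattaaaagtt
Their NOVA2 clusters held 719, 295 and 161 tags, and the printed stretches held 8, 10 and 6 YCAY.

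Every one of the 9 genes held at least 1 cluster of each protein. Of 22380 protein-coding genes, 12.7% held a NOVA1 cluster and 22.7% a NOVA2 cluster. The number of clusters varied widely among the subunits. Grik2 alone held 23 of the 71 NOVA1 clusters (32.4%, 95% Wilson interval 22.7 to 43.9) and 122 of the 270 NOVA2 clusters (45.2%, 39.4 to 51.1). Gria2, Gria4, Gria1 and Grik1 followed with 41, 36, 29 and 24 NOVA2 clusters, whereas Gria3 had 8, Grik3 had 6, and Grik4 and Grik5 had 2 each. For NOVA1 the order was Grik2 with 23, Gria2 with 16, Gria1 with 11, Gria4 with 9, Grik3 with 5, Grik1 with 4, and 1 each in Gria3, Grik4 and Grik5. By number of clusters Grik2 ranked 20 of 5076 protein-coding genes with a NOVA2 cluster and 26 of 2853 with a NOVA1 cluster.

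Long genes can hold more clusters, so the counts were also set against the length of the span. Gria2, the shortest of the AMPA genes at 117.9 kb, was the densest, with 34.8 NOVA2 and 13.6 NOVA1 clusters per 100 kb. Grik2, at 689.3 kb, had 17.7 NOVA2 and 3.34 NOVA1 clusters per 100 kb. Across protein-coding genes with a cluster, the medians were 5.08 for NOVA2 and 3.30 for NOVA1. Gria4 (9.52), Gria1 (9.09) and Grik1 (6.10) also lay above the NOVA2 median, and Grik5 (3.20), Gria3 (2.88), Grik3 (2.68) and Grik4 (0.469) lay below it. The amount of each RNA was not measured here, and more tags from a more abundant RNA cannot be told apart from stronger binding.

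**Figure D1:**
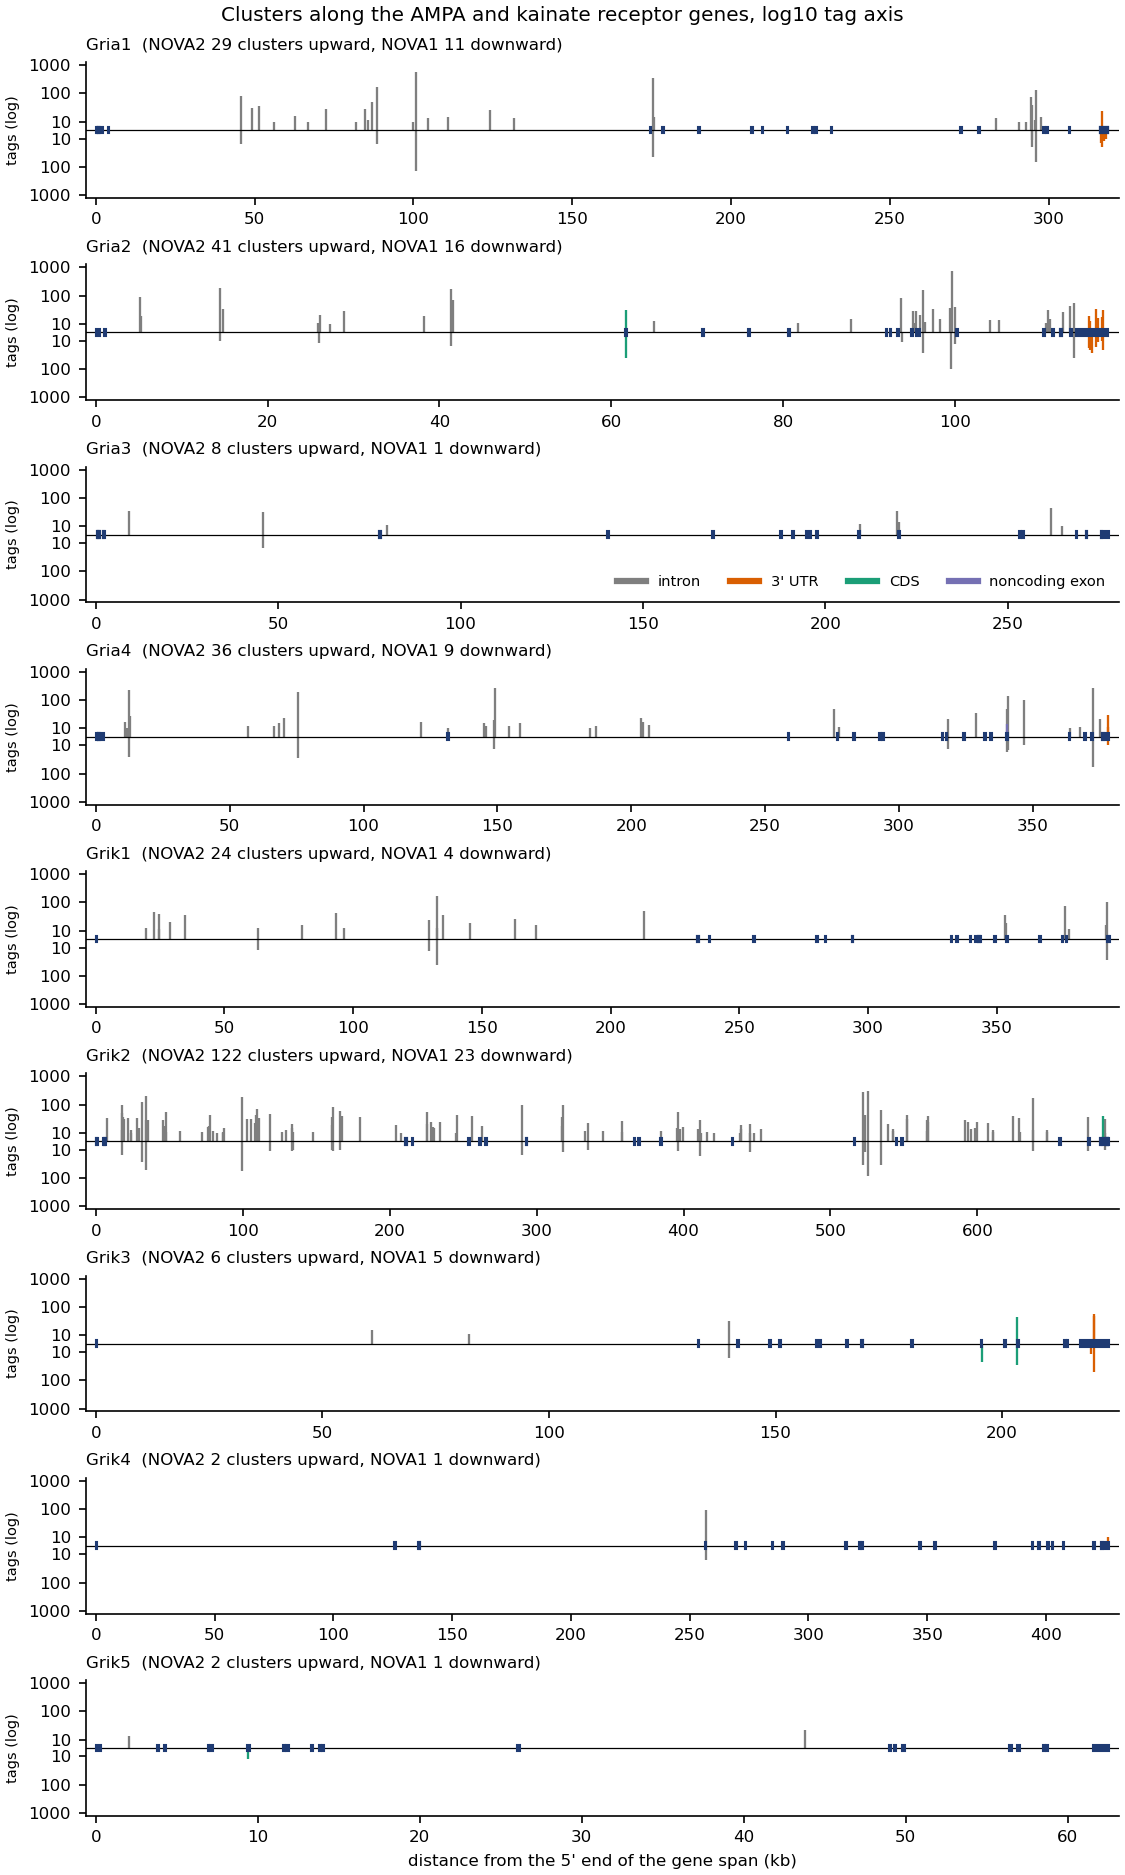
Each row is a gene, with the distance from the 5′ end of its span in kb on the x axis and exons of coding transcripts as blue boxes. Lines stand for clusters, NOVA2 upward and NOVA1 downward, with height giving the tags on a log axis that starts at 5 tags and colour giving the annotation class. The 122 NOVA2 clusters of Grik2 spread over its whole span, while Grik4 and Grik5 show 2 each.

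Most clusters were in introns, for both proteins. Of the NOVA2 clusters in the 9 genes, 254 of 270 were intronic (94.1%, 90.6 to 96.3), against 74.6% of the whole NOVA2 list. Of the NOVA1 clusters, 53 of 71 were intronic (74.6%, 63.4 to 83.3), against 40.3% of the whole NOVA1 list. Without Grik2 the shares were 89.9% for NOVA2 and 62.5% for NOVA1. Clusters in 3′ UTRs numbered 14 for NOVA1 (19.7%, 12.1 to 30.4) and 12 for NOVA2 (4.44%, 2.56 to 7.61), where the whole lists had 37.7% and 12.1%. Coding sequence held 4 NOVA1 clusters (5.63%, 2.21 to 13.6) and 3 NOVA2 clusters (1.11%, 0.379 to 3.22), beside 8.65% and 1.47% of the lists. By the member rule these clusters lie within gene spans, while the whole lists also hold clusters outside genes. Part of the difference in intron share therefore follows from the rule. List shares among clusters inside genes only are not given here.

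Of the NOVA1 clusters in the AMPA genes 12 of 37 were in 3′ UTRs (32.4%, 19.6 to 48.5), 7 of them in Gria2 and 4 in Gria1. In the kainate genes 29 of 34 NOVA1 clusters (85.3%, 69.9 to 93.6) and 151 of 156 NOVA2 clusters (96.8%, 92.7 to 98.6) were intronic, and the only 2 NOVA1 clusters in a 3′ UTR were in Grik3.

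**Figure D2:**
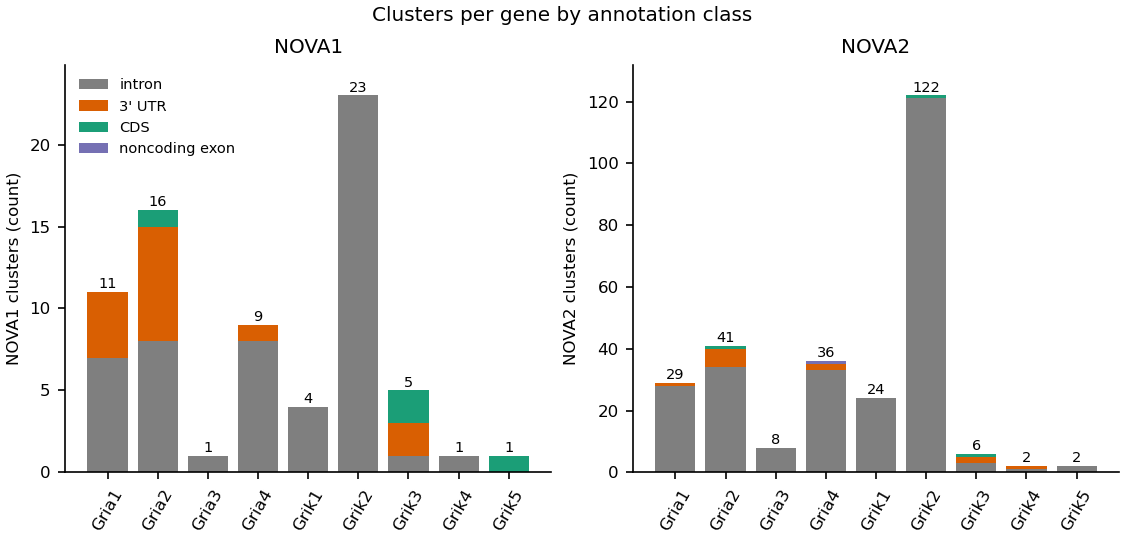
Bars give the number of NOVA1 clusters (left) and NOVA2 clusters (right) in each gene, stacked by annotation class, with the total above each bar. Grik2 has the tallest bar in both panels, with 23 and 122 clusters, and 3′ UTR clusters make up 7 of the 16 NOVA1 clusters of Gria2.

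In Gria1, the gene of the GluA1 subunit, the NOVA2 clusters lay in 3 of 15 introns plus the 3′ UTR. Intron 2, of 171 kb, held 18 of them, among them the second highest of all 9 genes, at chr11:56925521-56925834 with 592 tags. The overlapping NOVA1 cluster, at chr11:56925522-56925820 with 136 tags, was the highest NOVA1 cluster of all 9 genes. Intron 3, of only 3.62 kb, held the NOVA2 cluster at chr11:57000045-57000611 with 343 tags, beside 45 NOVA1 tags. These clusters were dense in the motif, with 40 and 63 YCAY, where the median NOVA2 cluster of the 9 genes held 4. The remaining 8 intronic clusters were in intron 13, which in the transcript used for numbering ends at the flip exon and has the flop exon within it.

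In Gria2, which encodes the subunit that makes AMPA receptors impermeable to calcium once edited, 10 of 16 introns held NOVA2 clusters and 4 held NOVA1 clusters. Intron 11, of 4.23 kb, held 8 NOVA2 clusters with 1038 tags and 3 NOVA1 clusters with 139 tags. Introns 10, 13 and 16, of 0.44, 0.85 and 0.388 kb, held 3, 3 and 1 NOVA2 clusters. Intron 2, the longest at 60.4 kb, held 11 NOVA2 clusters. The highest NOVA2 cluster without NOVA1 overlap in the 9 genes was also in intron 2, at chr3:80601444-80601805, with 87 tags and 39 YCAY, 12 of them in direct succession. Another without overlap, at chr3:80565068-80565187 in the same intron, had 67 tags and 5 YCAY.

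Gria3, the X-linked gene of the GluA3 subunit, was sparsely occupied despite a span of 277.7 kb. It had 8 NOVA2 clusters with 10 to 43 tags, all intronic, and 1 NOVA1 cluster with 15 tags at chrX:38799699-38799796 in intron 2, which overlapped a NOVA2 cluster of 32 tags. Gria4, the gene of the GluA4 subunit, had 33 intronic NOVA2 clusters in 8 introns. Introns 3 and 4, of 129 and 127 kb, held 10 and 12 of them, and intron 14, which ends at the flip exon and has the flop exon within it, held 5. The highest Gria4 cluster, at chr9:4423593-4423816 in intron 16, had 274 NOVA2 tags beside 60 NOVA1 tags.

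In Grik2, the gene of the GluK2 subunit, clusters of both proteins were spread along the gene. Intron 2, of 205 kb, held 54 NOVA2 and 10 NOVA1 clusters, and intron 14, of 108 kb, held 21 and 1. The highest tag counts were in intron 12, where chr10:48982582-48982879 had 295 NOVA2 and 83 NOVA1 tags and chr10:48986468-48986854 had 278 and 36. The highest Grik2 clusters without NOVA1 overlap were both in intron 2, at chr10:49398844-49399071 with 69 tags and at chr10:49460780-49461095 with 54. A predicted long noncoding RNA gene, A730099G02Rik, lies in the same span and on the same strand, and 4 NOVA2 clusters with 103 tags in all overlapped it. Past the annotated end of the gene, within 10 kb, there were a further 7 NOVA2 clusters and 4 NOVA1 clusters. The highest of these, at chr10:48815493-48815808, had 234 NOVA2 tags and began 3458 nt past the end.

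Grik1, the gene of GluK1, had 24 NOVA2 and 4 NOVA1 clusters, all intronic. Intron 1 of its longest coding transcript, of 233 kb, held 18 and 3 of them, led by chr16:88157323-88157409 with 164 NOVA2 and 40 NOVA1 tags. Near the 3′ end, chr16:87897178-87897317 had 105 NOVA2 and 27 NOVA1 tags and lay 37 nt before the next exon. Grik1 also had the NOVA2 cluster at chr16:87913167-87913245, whose 74 tags made it the next highest without NOVA1 overlap after the Gria2 cluster, 52 nt before the next exon.

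Grik3, Grik4 and Grik5 had 6, 2 and 2 NOVA2 clusters, fewer than Grik1 and Grik2, whereas for NOVA1 Grik3 had 5 and Grik1 had 4. In Grik3, the gene of GluK3, exons held 4 of the 5 NOVA1 and 3 of the 6 NOVA2 clusters. Its highest NOVA1 cluster, at chr4:125388118-125388312 in the 3′ UTR with 53 tags, overlapped a pair of adjoining NOVA2 clusters with 57 and 48 tags. Grik4 had a prominent intron cluster with 96 NOVA2 and 16 NOVA1 tags, at chr9:42495705-42495795, 220 nt after exon 4. Grik5 had 12 NOVA1 tags in exon 6 at chr7:25847899-25848070, and 13 and 21 NOVA2 tags in introns 1 and 12, with no overlap between the proteins.

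The question most specific to the AMPA genes was where binding lay relative to the flip and flop exons. In all 4 genes the flop exon came first and the flip exon second, each of 115 nt, and no annotated protein-coding transcript held both in full. The transcript Gria2-203, along which Gria2 introns are numbered, holds the flop exon and a flip exon of 114 nt that starts 1 nt late, and 1 transcript of Gria3 that is not annotated as protein-coding holds both. The exons of Gria1 lie at chr11:57123271-57123385 (flop) and chr11:57124110-57124224 (flip), those of Gria2 at chr3:80495242-80495356 and chr3:80494326-80494440, those of Gria3 at chrX:39007987-39008101 and chrX:39022678-39022792, and those of Gria4 at chr9:4432773-4432887 and chr9:4427030-4427144. The exons are 724 nt apart in Gria1 and 801 nt in Gria2, but 14576 nt in Gria3 and 5628 nt in Gria4. No cluster of either protein touched a flip or flop exon. Within 5 kb of them there were 21 NOVA2 clusters, 15 in introns and 6 in the Gria2 3′ UTR, and 12 NOVA1 clusters, 5 in introns and 7 in the Gria2 3′ UTR. All 5 intronic NOVA1 clusters overlapped a NOVA2 cluster, and 5 of the 15 intronic NOVA2 clusters overlapped a NOVA1 cluster, beside 14.1% of all intronic NOVA2 clusters. In the Gria2 3′ UTR the NOVA1 clusters had 10 to 26 tags and the NOVA2 clusters 13 to 34.

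The position differed between the genes. In Gria1 every cluster within 5 kb of these exons lay before the flop exon. The NOVA2 clusters there had 75, 39, 11, 134 and 15 tags and ended 3630, 3429, 2479, 2252 and 724 nt before the exon. The NOVA1 clusters had 11, 20 and 67 tags and ended 3644, 3387 and 2280 nt before it, so that the position printed above had the most tags for both proteins.

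In Gria2 the pair of exons had NOVA2 clusters on both sides. Distances here are differences between the nearest bases of cluster and exon. Clusters of 11, 30 and 15 tags ended 683, 486 and 156 nt before the flop exon. Clusters of 26, 44 and 54 tags began 157, 914 and 1370 nt after the flip exon. The cluster of 44 tags runs into the start of exon 16 but lies mostly in intron 15. The first after the flip exon, at chr3:80494010-80494169, held 2 YCAY.
Gria2, first cluster after the flip exon: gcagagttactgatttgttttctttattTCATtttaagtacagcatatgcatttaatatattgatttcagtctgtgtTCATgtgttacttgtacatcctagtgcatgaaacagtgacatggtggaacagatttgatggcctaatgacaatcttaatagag
NOVA1 had 1 intronic cluster there, of 41 tags, which began 1373 nt after the flip exon and overlapped the NOVA2 cluster of 54 tags. It lies in intron 16, of 388 nt, the last intron of the gene, of which the NOVA2 cluster covers 260 nt.

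In Gria3 the clusters near these exons were between them. A NOVA2 cluster of 43 tags, at chrX:39015891-39016064, began 7790 nt after flop and ended 6614 nt before flip, and one of 10 tags ended 3698 nt before flip. Neither had NOVA1 overlap. In Gria4 a pair of weak NOVA2 clusters of 10 and 11 tags lay between the exons, the first of them 496 nt after flop and the second 1439 nt before flip. The cluster of 274 NOVA2 and 60 NOVA1 tags lay past the flip exon, where its NOVA2 form began 3214 nt after it.

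**Figure D3:**
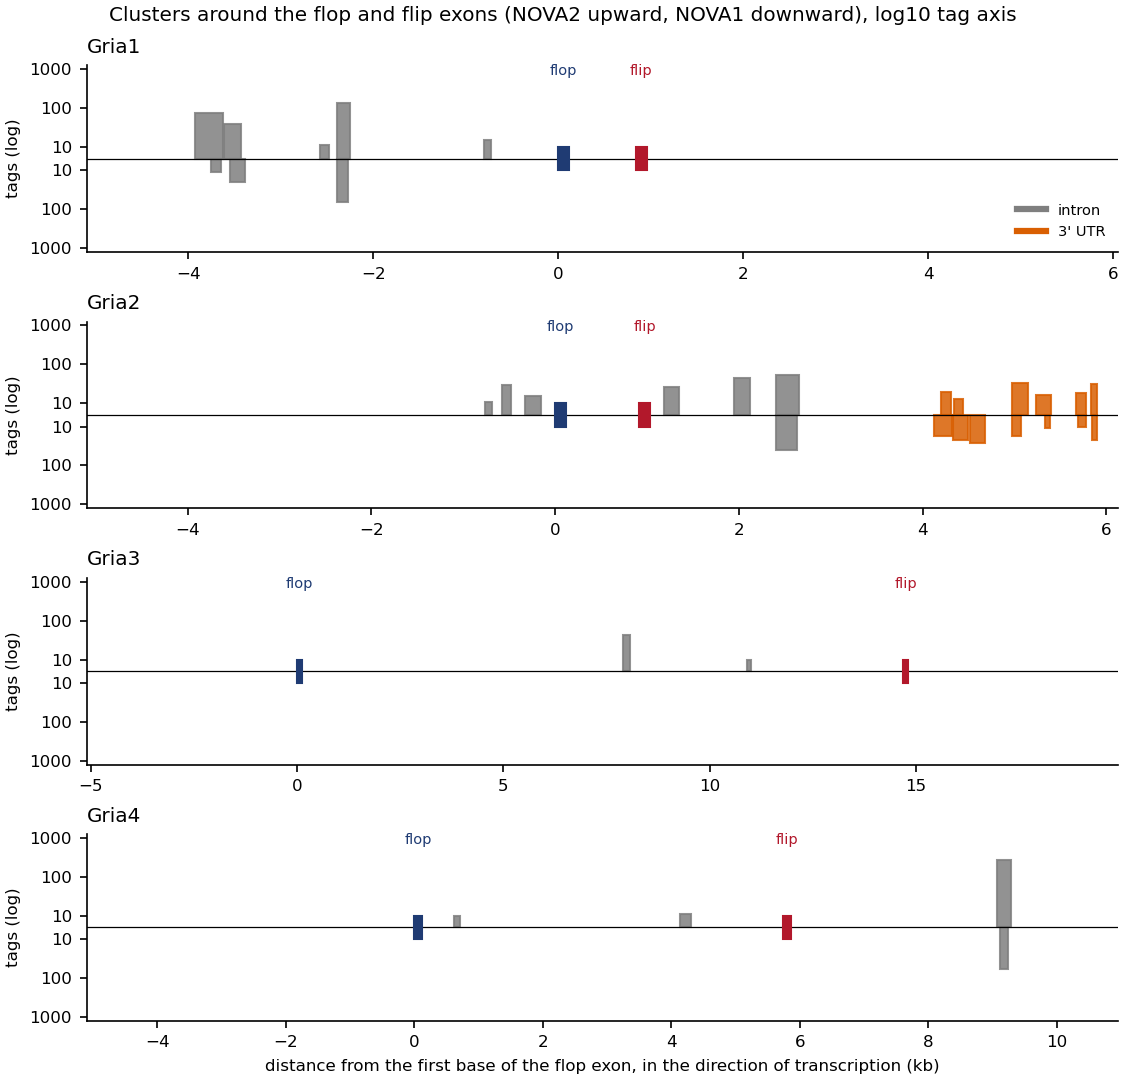
For the 4 AMPA genes, the x axis gives the distance in kb from the first base of the flop exon in the direction of transcription, and boxes mark the flop (blue) and flip (red) exons. Blocks are clusters, NOVA2 upward and NOVA1 downward, with height giving the tags on a log axis that starts at 5 tags. In the drawn stretch, which reaches 5 kb past the exons on either side, Gria1 clusters all precede flop and Gria2 clusters flank the pair. Gria3 clusters lie between the exons, and in Gria4 the cluster of 274 tags follows flip.

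The Q/R site, or the matching pore-loop codon in the genes that are not edited there, was located by reading the coding sequence in frame. In Gria2 this adenosine is at chr3:80510831 in exon 11, 21 nt before the end of the exon. A NOVA2 cluster of 20 tags at chr3:80510760-80510838 covered the site and the first 50 nt of intron 11. A stronger NOVA2 cluster of 161 tags, the last of those printed above, covered positions 286 to 483 of the intron. The longest unbroken stretch in the first 3000 nt of the intron that could pair with the 25 nt on either side of the site, G:U pairs allowed, was 17 nt at positions 284 to 300, so the cluster began inside it. The NOVA1 cluster of 28 tags covered positions 384 to 478 and did not reach the stretch. Pairing is a property of the sequence, and no editing was measured here.

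At the other end of the same intron, the cluster of 719 NOVA2 tags ended 201 nt before exon 12, and the NOVA1 cluster of 98 tags ended 480 nt before it. This was the highest NOVA2 cluster and the second highest NOVA1 cluster of the 9 genes. In the corresponding introns of Gria1, Gria4, Grik2, Grik3, Grik4 and Grik5 there was no cluster of either protein. Gria3 had NOVA2 clusters of 12 and 33 tags there, and Grik1 had NOVA2 clusters of 37 and 19 tags that ended 428 and 35 nt before the next exon. The longest pairing stretches in the other 8 genes were 11 to 15 nt.

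**Figure D4:**
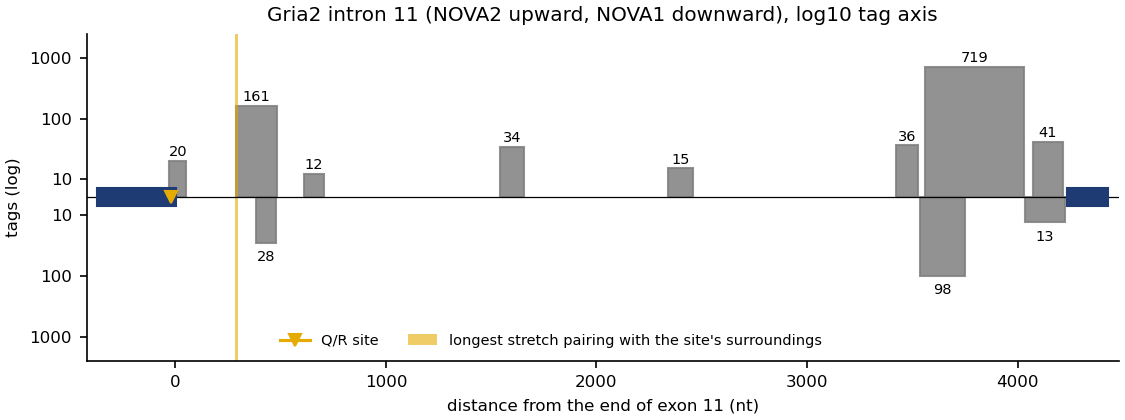
Gria2 intron 11 is drawn with the distance from the end of exon 11 in nt on the x axis and exons 11 and 12 as blue boxes. Blocks are clusters, NOVA2 upward and NOVA1 downward, with their tags written beside them on a log axis that starts at 5 tags. The 161-tag NOVA2 cluster begins at the stretch that can pair with the surroundings of the Q/R site (yellow line), and the 719-tag cluster lies near exon 12.

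The second comparison asked how far both proteins occupied the same positions in these genes. Of the 71 NOVA1 clusters 64 overlapped a NOVA2 cluster (90.1%, 81.0 to 95.1), beside 80.1% of the whole NOVA1 list. Among intronic NOVA1 clusters this was 53 of 53, beside 95.5% of all intronic NOVA1 clusters. Of the 270 NOVA2 clusters 66 overlapped a NOVA1 cluster (24.4%, 19.7 to 29.9), beside 22.1% of the whole list, and among intronic ones 54 of 254 (21.3%, 16.7 to 26.7), beside 14.1%. With NOVA2 reduced to its 9988 highest clusters, to match the length of the NOVA1 list, the shares were 63.4% of NOVA1 and 49.5% of NOVA2 clusters.

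The overlap followed the tag count. All 22 NOVA2 clusters of 100 or more tags had a NOVA1 cluster at the same position, where 88.2% of such clusters did in the whole list. Of those with 50 to 99 tags 14 of 21 overlapped (66.7%, beside 55.9% in the whole list), of those with 20 to 49 tags 22 of 94 (23.4%, beside 22.8%), and of those with 10 to 19 tags 8 of 133 (6.02%, beside 8.42%). The clusters with overlap held 7066 of the 11464 NOVA2 tags in these genes (61.6%, beside 52.0% in the whole list), and their median was 56.5 tags against 16 for those without. A site below 10 tags is missing from a list, so a cluster without overlap was not shown to be free of the other protein.

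Tags were compared at the 62 positions where 1 NOVA1 cluster overlapped 1 NOVA2 cluster and no other. NOVA1 had more tags at 3 of them and equal tags at 1, with 12 each in Grik1, and NOVA2 had more at the rest. NOVA1 over NOVA2 tags had a median log2 ratio of -1.82 (95% interval over pairs -2.19 to -1.54), beside -1.34 over all 6770 such pairs. That interval treats the 62 positions as independent although many share a gene. It holds no spread between replicates, and the difference from -1.34 was not tested. Read by class, the 52 intron pairs had a median of -2.09, beside -2.04 over all 3452 intron pairs, and the 8 pairs in 3′ UTRs had -0.52, beside -0.40 over 2146. Within the intron pairs the AMPA genes had -2.64 (24 pairs, quartiles -3.18 to -1.44) and the kainate genes -1.89 (28 pairs, quartiles -2.53 to -1.14). These ranges overlap, most of the kainate pairs were in Grik2, and the difference was not tested. The tags were not scaled to library size, so only the difference between classes or genes is informative, not the sign.

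**Figure D5:**
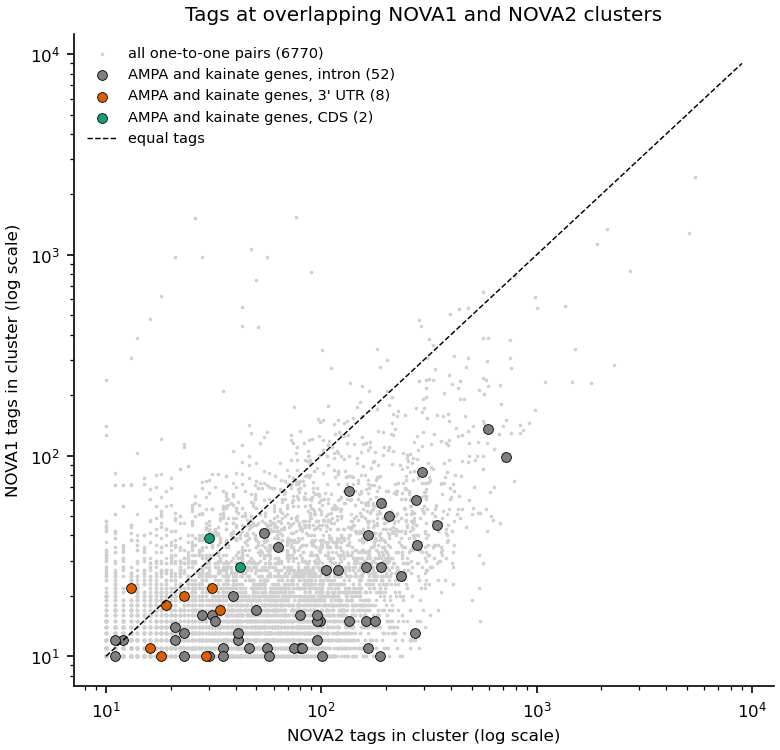
Each point is a position where 1 NOVA1 and 1 NOVA2 cluster overlapped, with NOVA2 tags on the x axis and NOVA1 tags on the y axis, both on log scales. Grey dots are all 6770 pairs, larger points are the 62 in the AMPA and kainate genes coloured by class, and the dashed line marks equal tags. The 52 intron pairs lie mostly well below the line, and the 8 3′ UTR pairs lie near it.

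The lowest ratios were in introns. In Gria4 intron 4 the NOVA2 cluster at chr9:4646865-4647414 had 273 tags against 13 for NOVA1 (log2 ratio -4.39), and in Gria2 intron 2 the NOVA2 cluster at chr3:80592145-80592313 had 188 against 10 (-4.23). NOVA1 exceeded NOVA2 in a 3′ UTR cluster of Gria2 with 22 against 13 tags (0.76), in exon 3 of Gria2 with 39 against 30 (0.38), and in intron 2 of Gria2 with 12 against 11 (0.13). The log2 ratios at these positions were computed from few tags and were not tested.

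The NOVA1 clusters without NOVA2 overlap were all exonic. In the whole NOVA1 list too, clusters without overlap were rarer in introns, where 95.5% overlapped NOVA2, beside 80.1% of all NOVA1 clusters. The highest was in the Gria2 3′ UTR with 26 tags, followed by exon 11 of Grik3, at chr4:125363348-125363438, with 23 tags. The latter was the only NOVA1 cluster of the 9 genes with no YCAY. The other 5 were 3 in the Gria1 3′ UTR with 14, 12 and 10 tags, 1 in the Grik3 3′ UTR with 12, and that in Grik5 exon 6 with 12. To show bound 3′ UTR sequence, the 30 nt with most YCAY of the highest NOVA1 3′ UTR cluster are given for Gria1 (chr11:57141612-57141641, plus strand, a cluster of 20 tags), Gria2 (chr3:80490781-80490810, minus, 26 tags) and Grik3 (chr4:125388220-125388249, plus, 53 tags).
Gria1 3′ UTR: ttcCCATCACttttcagtttcagattgaag
Gria2 3′ UTR: TCATgatgatctTCACtaaattttaCCATc
Grik3 3′ UTR: aacacacacCCACctCCATgtTCATaTCAC
The windows held 2, 3 and 4 YCAY.

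Among exonic NOVA2 clusters, 12 of 16 overlapped NOVA1 (75%, 50.5 to 89.8). The share over all exonic NOVA2 clusters of the list is not given here. The 4 without were 1 each in the Gria4 and Grik4 3′ UTRs with 11 and 10 tags, 1 of 14 tags on a predicted miRNA gene, CT030685.1, inside Gria4, and 1 of 39 tags at chr10:48823266-48823401. The last lies on a coding exon that is annotated only in the transcript Grik2-005, 1 of 8 Grik2 transcripts, and held 11 YCAY.

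Intron clusters were mostly far from exons. Within 500 nt of an exon there were 30 of the 254 intronic NOVA2 clusters (11.8%, 8.40 to 16.4), beside 10.4% of all intronic NOVA2 clusters, and 11 of the 53 intronic NOVA1 clusters (20.8%, 12 to 33.5), beside 12.7%. The AMPA genes accounted for 22 of the 30 and 8 of the 11. In them 21.4% of intronic NOVA2 clusters (14.5 to 30.2) were this close to an exon, against 5.30% in the kainate genes (2.71 to 10.1). Single genes carried this contrast. Gria2 held 14 of the 22 AMPA clusters near an exon and Gria1 held 0 among its 28, and without Gria2 the AMPA share was 8 of 69 (11.6%, 5.99 to 21.2). Grik2 held 121 of the 151 kainate intron clusters, of which 2 were near an exon, and without Grik2 the kainate share was 6 of 30 (20%, 9.51 to 37.3). The median distance to an exon was 6613 nt for AMPA and 22312 nt for kainate NOVA2 intron clusters, and 13579 nt for the AMPA genes without Gria2. Intron length differs between the genes and was not adjusted for.

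YCAY was counted on the bound strand per 1000 possible start positions and set beside the flanking sequence that begins 200 nt and stops 500 nt away on each side. The NOVA2 clusters of the 9 genes held 41.1 (95% Poisson interval 39.0 to 43.3) against 17.9 in flanks, a ratio of 2.30, and 269 of 270 held at least 1. The NOVA1 clusters held 47.0 (42.8 to 51.5) against 17.2, a ratio of 2.73. Over the whole lists the ratios were 2.29 and 2.02. The NOVA1 value rests in part on a pair of Gria1 clusters with 40 and 53 YCAY, without which it was 40.1 against 17.2, a ratio of 2.33. Intronic NOVA1 clusters held 53.6 (48.3 to 59.4), beside 53.4 in all intronic NOVA1 clusters, and exonic ones 31.4 (25.3 to 38.6). By gene, NOVA2 densities ran from 33.6 in Gria2 and 35.2 in Grik2, which held the most clusters, to 70.4 in Grik4, which held 2.

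Other genes of the receptor pathway were bound to different degrees. Over all protein-coding genes 12.7% held a NOVA1 cluster and 22.7% a NOVA2 cluster. Spans of the pathway genes ran from 5.548 kb for Cnih2 to 1945 kb for Dlg2. The counts below were not adjusted for span or RNA amount, and their difference from all genes was not tested. Of 13 genes for auxiliary subunits, which set gating and surface delivery, 11 held NOVA1 and 11 NOVA2 clusters, led by Neto1 with 8 and 25, Shisa9 with 5 and 25, and Neto2 with 9 and 20. Neto1 and Neto2 encode kainate receptor partners. Of 9 scaffold and trafficking genes, 5 held NOVA1 and 9 NOVA2 clusters, led by the anchoring protein gene Dlg2 with 26 and 252, Grip1 with 14 and 48, and Epb41l1 with 9 and 10. Of the genes of the ADAR family, Adarb2 held 15 NOVA1 and 56 NOVA2 clusters. Adar and Adarb1, of which Adarb1 encodes the enzyme that edits the Gria2 Q/R site, held 0 NOVA1 and 1 and 3 NOVA2 clusters. Of 9 related delta and NMDA receptor genes, 6 held NOVA1 and 7 NOVA2 clusters, among them Grin2b with 18 and 78 and Grid1 with 7 and 49. Among these pathway genes only Dlg2 held more NOVA2 clusters than Grik2, with 13.0 per 100 kb over a span of 1945 kb.

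In the lists as a whole, neuronal markers held clusters, and markers of astrocytes, microglia, blood and endothelium held 0. All 6 neuron markers (Tubb3, Map2, Stmn2, Dcx, Rbfox3 and Snap25) held clusters of both proteins, 54 for NOVA1 and 105 for NOVA2, and 3 of 4 markers of cortical projection neurons did. None was found in the 3 markers of astrocytes, the 3 of microglia and the 3 annotated ones of blood and endothelium. Of 3 oligodendrocyte lineage markers, 1 held a NOVA2 cluster. Over all protein-coding genes only 12.7% held a NOVA1 cluster and 22.7% a NOVA2 cluster, so a gene without clusters is the usual case. Spans also differed, with 0.955 kb for Hba-a1 and 113.8 kb for Aldh1l1 beside 267.3 kb for Map2, and were not adjusted for. Summed over clusters, the NOVA1 list held 304703 tags and the NOVA2 list 1309270, a ratio of 4.30, and in the AMPA and kainate genes the sums were 1705 and 11464, a ratio of 6.72.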

How the data were processed

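NOVA1 and NOVA2 HITS-CLIP clusters from E18.5 mouse cortex were analysed, from 3 libraries per protein. Per the study's methods and the submitters' processing notes, the authors aligned reads with Novoalign to mm9, pooled the libraries and deposited 1 cluster list per protein, with a tag count for each cluster. Whether this count is all tags of a cluster or its greatest depth is not given in the sources used here. The library depths were not used here, and the counts were not scaled. The members and gene lists were chosen with earlier results of these data known.

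Clusters were placed on GENCODE vM1 (NCBIM37, the assembly of mm9) by the class covering most nucleotides, with coding sequence placed before UTRs (3′ before 5′), these before noncoding exons and introns, and all of these before the 10 kb on either side of a gene. Exons of retained-intron transcripts were left out. Introns were numbered along the coding transcript of longest span, which for Grik1 stops short of the 3′ part of the gene. Flip and flop were the adjoining pair of exons of equal length that no coding transcript holds together, told apart by their translation. Clusters overlapped if they shared at least 1 nt on a strand. Shares have 95% Wilson intervals, YCAY counts exact Poisson intervals, and the median over pairs an interval from order statistics.

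Named clusters were the 5 with most tags in each list, the 5 with most tags and no overlap, and those within 5 kb of flip or flop, and the pathway genes named were the 3 with most NOVA2 clusters of each list. Some genes of these lists and of the marker lists are not reported here. Positions and values of other clusters were chosen after they were seen. Alternatives were 20 or more tags, other overlaps, windows and flanks, a shortened NOVA2 list, and leaving out each gene. The counting scripts were tested on simulated data. Python 3.11.15, NumPy 2.4.6, pandas 2.3.3, SciPy 1.17.1, pysam 0.24.0, Biopython 1.88 and Matplotlib 3.10.9 were used.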

Additional observations from a re-analysis of the deposited data

How the results depend on the processing

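Of 79 alternatives to 12 results, 66 left the value near that reported, 13 moved it and 0 reversed it. Most of these results were counts or shares, which have no direction, so for them a reversal could not occur. With 20 or more tags, 26 NOVA1 and 137 NOVA2 clusters remained in the 9 genes, and 17.5% of the NOVA2 clusters overlapped NOVA1 when both lists were so limited. With the NOVA2 list shortened to the length of the NOVA1 list, which left clusters of 31 tags or more, 93 NOVA2 clusters were in these genes, 63.4% of NOVA1 clusters overlapped and 49.5% of NOVA2 clusters did. Whole-list overlaps at 20 or more tags and with the shortened list are not given here. Without Grik2 the share in introns was 62.5% for NOVA1 and 89.9% for NOVA2. The median log2 ratio was -0.52 over 3′ UTR pairs. Within 2 kb of flip or flop there were 10 clusters in place of 33. The share of intronic NOVA2 clusters within 500 nt of an exon, for which leaving out genes was chosen after seeing the data, was 11.6% for the AMPA genes without Gria2, and for the kainate genes 2.36% without Grik1 and 20% without Grik2. The AMPA and kainate shares were entered as separate results, so a change in their order was not counted as a reversal. Leaving out each gene in turn gave overlaps of 85.4% to 93.3% for NOVA1 and 22.3% to 28.4% for NOVA2, and log2 ratios of -2.04 to -1.61. No paired analysis was possible because the tags of the 3 libraries of each protein were pooled in the lists, and for the same reason no library could be left out. Tag counts limit the overlap, since a site under 10 tags for a protein is missing from the list of that protein.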

Other observations

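Clusters past the annotated 3′ ends belong to no class of the gene itself. Within 10 kb downstream of Gria2 there were 5 NOVA2 clusters with 122 tags in all, of which chr3:80487912-80488085 had 70 tags and lay 773 nt past the end, and 0 NOVA1 clusters. Downstream of Grik2 the 7 NOVA2 clusters held 377 tags and the 4 NOVA1 clusters 71, and all 4 NOVA1 clusters overlapped a NOVA2 cluster. Downstream of Grik5 there was 1 NOVA1 cluster of 30 tags, in coding sequence of another gene. The other 6 genes had no cluster in this stretch.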
